A study of Mus musculus with 48 samples.

Results

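A set of 44 cell cycle genes was followed through the development of red pulp macrophages (RPMs), the iron-recycling macrophages of the spleen. The members were listed by gene name, by a rule that uses no measured value, although earlier results of these data were known when they were chosen. All 44 were found among the 54735 genes counted in each library. They comprised 22 genes of G2 and mitosis (called mitotic here), 20 genes of the G1/S transition and S phase (called S phase here), and *Stmn1* and *Hmgb2*, which were placed in neither class. RNA-seq was available for splenic monocytes (Ly6Glo CD11bhi F4/80-), pre-RPMs (Ly6Glo CD11bhi F4/80lo), and RPMs (Ly6Glo CD11blo/- F4/80hi) sorted from the spleens of male Balb/c mice aged 10 weeks. Each of the 3 cell types came from 4 wild-type (WT) mice and from 4 mice labelled IL1RL1-/-, after the gene of the interleukin-33 receptor, giving 6 groups and 24 libraries. The 24 chromatin accessibility samples of the study were not analysed here. The comparisons asked whether the members changed at each step of development, whether mitotic and S phase genes changed alike, and whether the genotype label made a difference.

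Cells that divide copy their DNA in S phase and separate it in mitosis, and each stage needs its own proteins. S phase genes such as those of the Mcm2 to Mcm7 helicase, the sliding clamp PCNA, and the enzymes of nucleotide synthesis are transcribed when E2F factors are released at the end of G1. Mitotic genes, which encode cyclins A and B, the kinase CDK1, spindle motors, and kinetochore proteins, are transcribed later, through promoters that often carry a CCAAT box and a CHR element (cell cycle genes homology region). RPMs are maintained in part by local proliferation and in part by monocytes, which reach them through the pre-RPM stage.

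The promoters of 6 members are shown here so that the words searched can be seen in members described below, as the 150 bases before the RefSeq start site in GRCm38.p6, read 5′ to 3′ on the strand of the gene. Capitals mark the CHR words (TTTGAA or TTTAAA), the CCAAT box (CCAAT), and the E2F words (TTTCCCGC, TTTCGCGC, TTTGCCGC, or TTTGGCGC), each on either strand, and E2F words can overlap each other. Among those shown, *Mcm2* holds a CHR word and no E2F word, and *Cdk1* holds an E2F word besides its CHR words. The mitotic genes shown are *Mki67* (chr7:135716380-135716529, minus strand), *Top2a* (chr11:99024190-99024339, minus strand), and *Cdk1* (chr10:69352913-69353062, minus strand), and the S phase genes are *Mcm2* (chr6:88898781-88898930, minus strand), *Mcm5* (chr8:75109359-75109508, plus strand), and *Mcm6* (chr1:128359706-128359855, minus strand).
*Mki67*: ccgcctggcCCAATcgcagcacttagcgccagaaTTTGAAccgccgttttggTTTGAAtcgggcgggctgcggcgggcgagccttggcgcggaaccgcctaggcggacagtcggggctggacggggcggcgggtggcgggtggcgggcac
*Top2a*: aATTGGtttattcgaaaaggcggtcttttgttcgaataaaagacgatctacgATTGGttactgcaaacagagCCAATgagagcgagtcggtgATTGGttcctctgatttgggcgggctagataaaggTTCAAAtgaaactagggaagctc
*Cdk1*: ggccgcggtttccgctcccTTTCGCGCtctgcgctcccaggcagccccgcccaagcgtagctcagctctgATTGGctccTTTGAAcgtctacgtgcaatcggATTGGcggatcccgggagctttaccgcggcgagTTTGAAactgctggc
*Mcm2*: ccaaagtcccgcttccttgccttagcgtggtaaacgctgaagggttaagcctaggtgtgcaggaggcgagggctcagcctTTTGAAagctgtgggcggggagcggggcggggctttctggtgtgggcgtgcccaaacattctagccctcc
*Mcm5*: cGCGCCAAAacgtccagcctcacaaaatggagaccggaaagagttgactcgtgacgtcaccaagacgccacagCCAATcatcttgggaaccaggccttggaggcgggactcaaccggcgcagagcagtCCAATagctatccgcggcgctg
*Mcm6*: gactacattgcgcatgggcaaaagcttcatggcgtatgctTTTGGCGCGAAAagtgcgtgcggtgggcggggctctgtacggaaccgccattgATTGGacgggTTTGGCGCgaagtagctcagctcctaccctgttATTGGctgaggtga

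In windows from 250 bases before to 50 bases after the start, given by RefSeq for 36 of the 44 members (all but *Ccna2*, *Aurkb*, *Kif20a*, *Tpx2*, *Mcm4*, *Gins2*, *Ccne2*, and *Stmn1*), a CHR word was found in 16 of 18 mitotic members (88.9%) and in 7 of 17 S phase members (41.2%), against 27.8% of the 27025 genes in the RefSeq table. A CCAAT box was found in 16 of 18 mitotic members (88.9%) and 11 of 17 S phase members (64.7%), against 37.9% of all genes. E2F words showed the opposite order, with 1 of 18 mitotic members (5.56%), 7 of 17 S phase members (41.2%), and 2.32% of all genes. *Cdk1* was the mitotic member with an E2F word, whereas the S phase members with one were *Mcm3*, *Mcm5*, *Mcm6*, *Mcm7*, *Cdt1*, *Cdc6*, and *Pclaf*. These matches describe letters in a window and not bound sites.

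The total count per library ranged from 3562367 to 6559454, with a median of 4728764. Markers of each sorted population were checked first. The 10 RPM markers had a summed level of 6336 to 8175 CPM (a count relative to the total of its library, scaled by TMM factors) in WT RPMs, 157 to 343 in WT pre-RPMs, and 59.3 to 139 in WT monocytes, and all 10 were higher in RPMs than in pre-RPMs in both genotypes. The 7 monocyte markers were lower in WT monocytes (1151 to 4852 CPM) than in WT pre-RPMs (5152 to 5953 CPM). The monocyte libraries also held markers of other cells, although the study's flow cytometry counted these populations among NK1.1low cells. In WT monocytes, the 6 natural killer (NK) cell markers summed to 541 to 1790 CPM, the 9 neutrophil precursor markers to 372 to 1128 CPM, and the 5 plasma cell markers to 416 to 589 CPM. In RPMs, the 11 erythroid markers in the files summed to 1416 to 24190 CPM in WT and to 929 to 15610 CPM in libraries labelled IL1RL1-/-, with none of them at 0. *Il1rl1*, the targeted gene, went against its label in monocytes and pre-RPMs. Its counts in mice 1 to 4 were 28, 19, 12, and 13 in WT monocytes and 51, 73, 71, and 64 in monocytes labelled IL1RL1-/- (log2 fold change 2.13, edgeR adjusted p = 0.00882). In pre-RPMs they were 18, 15, 13, and 24 against 50, 76, 42, and 65 (log2 fold change 1.52, edgeR adjusted p = 0.00107), and in RPMs 5, 9, 7, and 13 against 1, 7, 3, and 6, too few to be tested. *Gata2*, listed as a basophil or mast cell marker, was lower in pre-RPMs labelled IL1RL1-/- than in WT (mean 1.45 against 12.4 CPM, log2 fold change -3.01, edgeR adjusted p = 0.00328). Libraries are therefore named by their label, and every direction between genotypes follows the labels.

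Most cell cycle members had their lowest mean level in pre-RPMs and their highest in RPMs in both genotypes. In WT, the mean CPM was lowest in pre-RPMs for 18 of 22 mitotic and 17 of 20 S phase members, and highest in RPMs for 20 of 22 mitotic and 17 of 20 S phase members. Among libraries labelled IL1RL1-/-, it was lowest in pre-RPMs for 19 and 17 members and highest in RPMs for 17 and 14. The exceptions in WT RPMs were *Aurkb* and *Cenpa*, highest in pre-RPMs, and *Mcm4*, *Mcm6*, and *E2f8*, highest in monocytes. These orders rest on means, the share of all genes with the same order was not counted, and the tests of each step follow. In sorted bulk populations, fewer cycling cells and less RNA of these genes per cell cannot be told apart.

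**Figure D1:**
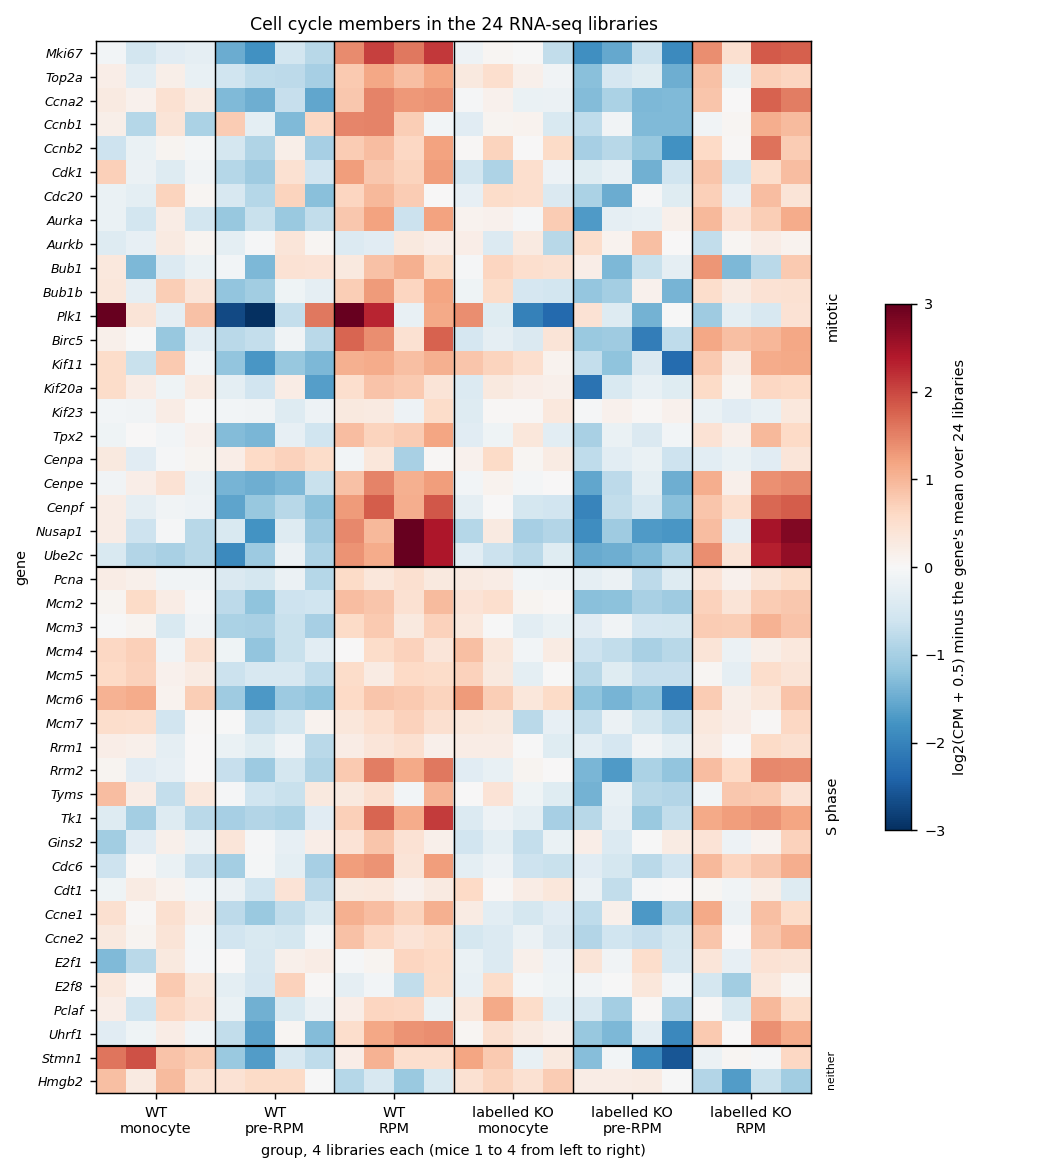
Level of each of the 44 members (one line per gene, mitotic, S phase, and neither class from top to bottom) in the 24 libraries (columns, 4 per group), drawn as log2(CPM + 0.5) minus the gene's mean over the libraries, with colours limited at -3 and 3. Most lines are blue in pre-RPMs and red in RPMs in both genotypes, whereas *Hmgb2* is blue in RPMs and *Plk1* varies between mice of the same group.

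From pre-RPMs to RPMs, the mitotic members called were all higher. In WT, 12 of the 18 mitotic members tested were higher in RPMs and none were lower, where 14% of all 11239 genes tested were called higher and 10.7% lower (edgeR, adjusted p below 0.01 with a log2 fold change beyond 1 in either direction). In libraries labelled IL1RL1-/-, 11 of 17 were higher and none lower, where 14.5% of all genes were called higher and 11.5% lower. The median log2 fold change of the mitotic members tested was 1.83 in WT and 2.18 in libraries labelled IL1RL1-/-, against -0.001 and -0.002 over all genes tested. Members with few counts were not tested, and the median difference in mean log2 CPM over all 22 mitotic members was 1.72 and 1.40. RPMs and pre-RPMs did not overlap for 15 of the 22 mitotic members in WT and 14 in libraries labelled IL1RL1-/-, with RPMs higher, where 25.7% and 27% of all genes tested did so. The 10 members called in both genotypes were *Mki67*, *Top2a*, *Ccna2*, *Ccnb2*, *Bub1b*, *Kif11*, *Cenpe*, *Cenpf*, *Nusap1*, and *Ube2c*.

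*Mki67*, which encodes the proliferation marker Ki-67 (chromosome 7, 135689784 to 135716361 in GRCm38), had the highest level per kilobase of the mitotic members in WT RPMs after *Plk1*, at 12.01 ± 2.83 CPM per kb of exons (mean ± SD, n = 4). Its CPM in WT mice 1 to 4 was 31.9, 22.96, 26.6, and 27.9 in the monocytes, 11.6, 9.19, 22.8, and 18.6 in pre-RPMs, and 90.6, 142, 103, and 148 in RPMs. In mice labelled IL1RL1-/- it was 30.01, 35.1, 33.6, and 19.96 in the monocytes, 8.99, 11.4, 21.4, and 8.58 in pre-RPMs, and 89.7, 47.4, 122, and 119 in RPMs. Every RPM library was above every pre-RPM and monocyte library, with a log2 fold change from pre-RPMs of 2.91 (SE 0.24, edgeR adjusted p = 1.85e-07) in WT and 2.90 (SE 0.30, edgeR adjusted p = 9.16e-07) in libraries labelled IL1RL1-/-. *Top2a*, the topoisomerase that untangles replicated chromosomes, was at 9.304, 8.14, 8.09, and 6.904 CPM in WT pre-RPMs and 24.8, 32.4, 27.2, and 33.01 CPM in WT RPMs, after 16.5, 11.4, 16.1, and 12.1 CPM in monocytes. In the libraries labelled IL1RL1-/-, *Top2a* was at 17.7, 20.4, 15.9, and 13.2 CPM in monocytes, 5.68, 9.84, 11.01, and 4.85 CPM in pre-RPMs, and 26.4, 12.4, 23.7, and 22.6 CPM in RPMs. RPM mouse 2 of that label was the lowest RPM library for *Mki67* and *Top2a*, and its *Top2a* level was below every monocyte library and above every pre-RPM library of that label. The log2 fold change of *Top2a* from pre-RPMs to RPMs was 1.81 (SE 0.15, edgeR adjusted p = 2.41e-07) in WT and 1.39 (SE 0.27, edgeR adjusted p = 0.000415) in libraries labelled IL1RL1-/-.

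The engines of mitotic entry had few counts. *Cdk1*, the mitotic kinase, was at 3.06, 1.398, 1.15, and 1.498 CPM in WT monocytes, 0.698, 0.525, 2.45, and 0.952 in pre-RPMs, and 4.66, 3.26, 2.94, and 4.62 in RPMs, and rose from pre-RPMs to RPMs at a log2 fold change of 1.68 (SE 0.41, edgeR adjusted p = 0.00333). *Cdk1* in mice labelled IL1RL1-/- was at 0.984, 0.6304, 2.58, and 1.44 CPM in monocytes, 1.18, 1.36, 0.298, and 0.932 in pre-RPMs, and 3.36, 0.981, 2.63, and 3.62 in RPMs. It was too low there for the main test at this step (edgeR with a count filter, all libraries), and RPM mouse 2 overlapped the pre-RPMs. *Ccnb2*, a B-type cyclin that activates CDK1, was at 1.07, 1.598, 2.06, and 1.798 CPM in WT monocytes, 1.16, 0.788, 2.21, and 0.714 in pre-RPMs, and 3.598, 4.07, 3.21, and 5.08 in RPMs. *Ccnb2* in mice labelled IL1RL1-/- was at 1.97, 3.36, 1.94, and 3.09 CPM in monocytes, 0.7095, 0.848, 0.595, and 0.186 in pre-RPMs, and 3.14, 1.96, 7.02, and 3.62 in RPMs. RPMs were above pre-RPMs in every library of both genotypes (log2 fold change 1.65 and 2.62, edgeR adjusted p = 0.00158 and 0.000457). The related B-type cyclin *Ccnb1* had 0 to 15 counts per library and was in none of the main tests. The CPM of *Ccnb1* was 0.916, 0.1997, 1.15, and 0.1498 in WT monocytes, 1.63, 0.525, 0, and 1.43 in pre-RPMs, and 2.96, 3.05, 1.603, and 0.693 in RPMs. *Ccnb1* in mice labelled IL1RL1-/- was at 0.492, 0.841, 0.861, and 0.412 CPM in monocytes, 0.236, 0.678, 0, and 0 in pre-RPMs, and 0.672, 0.817, 2.19, and 1.92 in RPMs, and pre-RPMs and RPMs overlapped in both genotypes.

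*Ccna2*, cyclin A2, acts in both S phase and mitosis, and its 4 WT pre-RPM libraries were at 0.9304, 0.788, 1.72, and 0.714 CPM against 5.71, 9.56, 8.28, and 8.54 in RPMs (log2 fold change 2.87, SE 0.32, edgeR adjusted p = 3.97e-06). *Birc5* encodes survivin of the chromosomal passenger complex. Its CPM was 1.83, 1.598, 0.459, and 1.199 in WT monocytes, 0.698, 0.788, 1.47, and 0.714 in pre-RPMs, and 6.56, 5.09, 2.405, and 6.69 in RPMs, left out of the main test at the second step for low counts. In libraries labelled IL1RL1-/- it was 0.984, 1.26, 1.08, and 2.26 in the monocytes, 0.473, 0.509, 0, and 0.746 in pre-RPMs, and 4.26, 3.43, 3.73, and 4.26 in RPMs, a rise from pre-RPMs to RPMs at a log2 fold change of 2.92 (SE 0.41, edgeR adjusted p = 2.01e-05). RPMs were above pre-RPMs in every library of *Birc5* in both genotypes. The largest rises from pre-RPMs to RPMs were those of *Ube2c*, the ubiquitin-conjugating enzyme of the anaphase-promoting complex (log2 fold change 3.50, SE 0.56, edgeR adjusted p = 0.000116 in WT and 3.84, SE 0.57, edgeR adjusted p = 4.01e-05 in libraries labelled IL1RL1-/-), and of *Nusap1*, a spindle microtubule protein (3.28, SE 0.53, edgeR adjusted p = 0.000119 and 4.00, SE 0.72, edgeR adjusted p = 0.000231). The third in WT was *Cenpf*, a kinetochore protein, with 2.94 (SE 0.27, edgeR adjusted p = 5.85e-07).

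**Figure D2:**
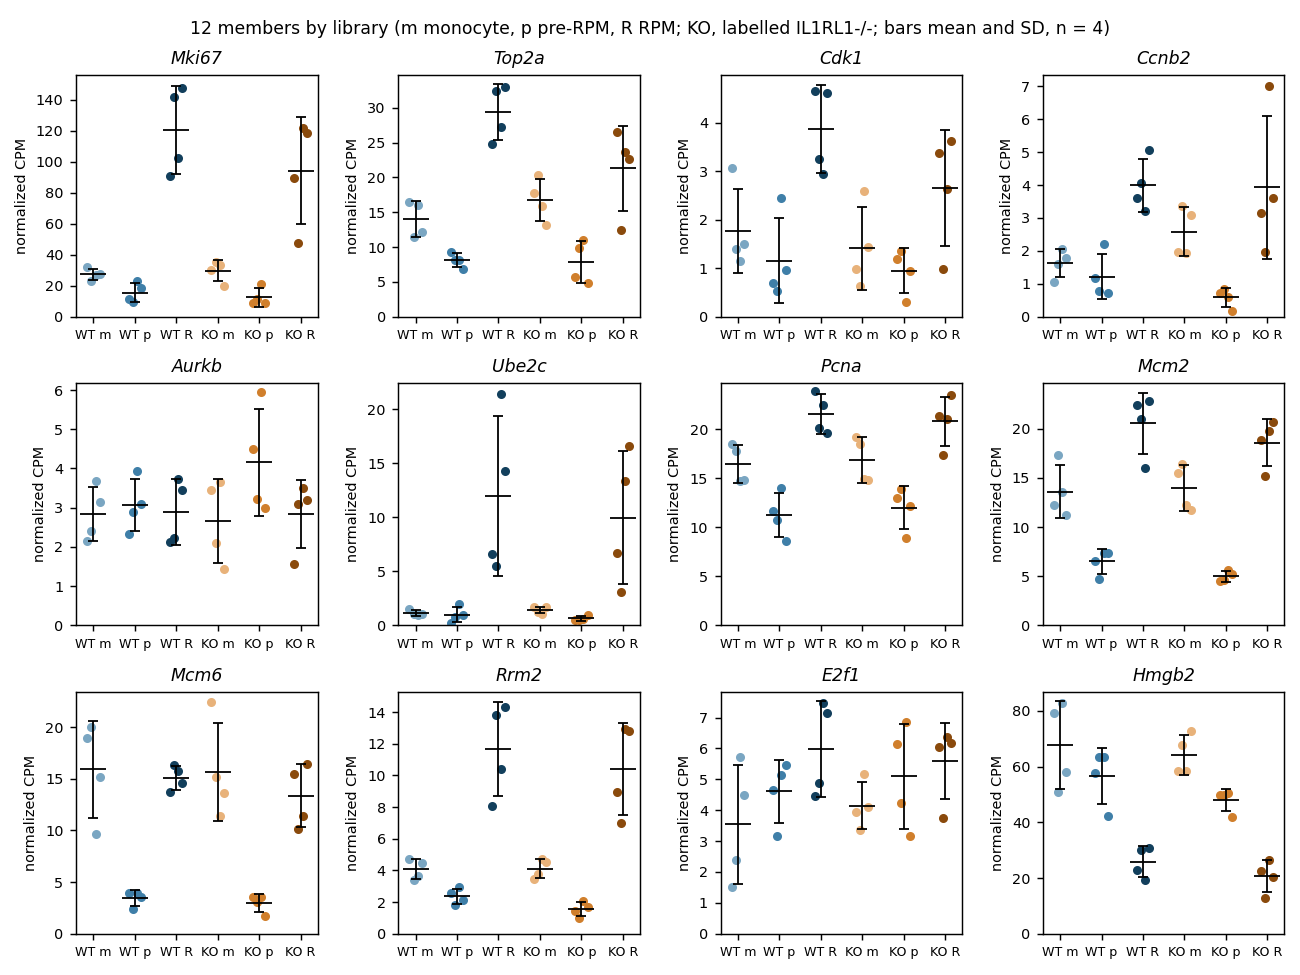
Normalized CPM of 12 members in each library (points) by group, with the mean and SD of the 4 mice; each panel has its own vertical axis starting at 0. *Mki67*, *Top2a*, *Mcm2*, and *Rrm2* are above all pre-RPM libraries in every RPM library of both genotypes, *Aurkb* and *E2f1* overlap among all groups, and *Hmgb2* is lowest in RPMs.

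*Nusap1* and *Ube2c* were also, of the members called at this step, those that varied most between RPM libraries relative to their mean, and they varied with the erythroid markers. In WT RPMs of mice 1 to 4, the erythroid markers summed to 2088, 1416, 24190, and 10120 CPM, *Nusap1* was at 9.101, 6.51, 29.1, and 18.7 CPM, and *Ube2c* at 6.56, 5.49, 21.4, and 14.3 CPM. In RPMs labelled IL1RL1-/-, the erythroid markers summed to 2871, 929, 11460, and 15610 CPM, *Nusap1* was at 6.28, 2.45, 19.1, and 23.9 CPM, and *Ube2c* at 6.72, 3.105, 13.4, and 16.6 CPM. Mice 3 and 4 were thus the higher pair for all of these in both genotypes, whereas *Mki67* was highest in mice 4 and 2 of WT, and in mice 3 and 4 labelled IL1RL1-/-. All 11 erythroid markers rose from pre-RPMs to RPMs in both genotypes, and summed to 14.97 to 643 CPM in WT pre-RPMs and 15.8 to 41.2 CPM in those labelled IL1RL1-/-. With the RPM libraries of mice 1 and 2 only, an alternative chosen after seeing the data, the rise in WT remained called for *Ube2c* (log2 fold change 2.54, edgeR adjusted p = 0.000388), *Nusap1* (2.29, adjusted p = 0.000253), and *Mki67* (2.85, adjusted p = 1.35e-07), where 12.6% of all genes were called higher. The values in libraries labelled IL1RL1-/- were 2.81 (adjusted p = 0.000168), 2.43 (adjusted p = 0.00109), and 2.43 (adjusted p = 1.19e-06), all called, where 13.1% of all genes were called higher. *Ccnb2*, *Cdk1*, and *Mcm5* in WT were no longer called (log2 fold change 1.58, 1.70, and 0.99, edgeR adjusted p = 0.0109, 0.0126, and 0.00181), nor was *Bub1b* in libraries labelled IL1RL1-/- (log2 fold change 1.36, edgeR adjusted p = 0.0235). *Plk1* was newly called in WT (log2 fold change 3.21, edgeR adjusted p = 0.000783). So were *Birc5* (2.58, adjusted p = 0.000106), *Aurka* (2.79, adjusted p = 0.000672), and *Ccne1* (2.41, adjusted p = 0.00131), which the main test left out. Some T cell markers were called higher in RPMs as well. In WT these were 3 of 4 tested (*Cd3e*, *Cd3g*, and *Cd4*), and in libraries labelled IL1RL1-/- 1 of 4 (*Cd4*). Mean *Cd4* rose from 3.03 to 27.6 CPM in WT and from 3.515 to 32.6 CPM in libraries labelled IL1RL1-/-. The T cell markers summed to 42.8 to 88.7 CPM in WT RPMs against 11.3 to 19.8 CPM in WT pre-RPMs. The RPM libraries of mice 1 and 2 still held 929 to 2871 CPM of erythroid markers, and the part of RNA from other cells in these rises was not tested.

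**Figure D3:**
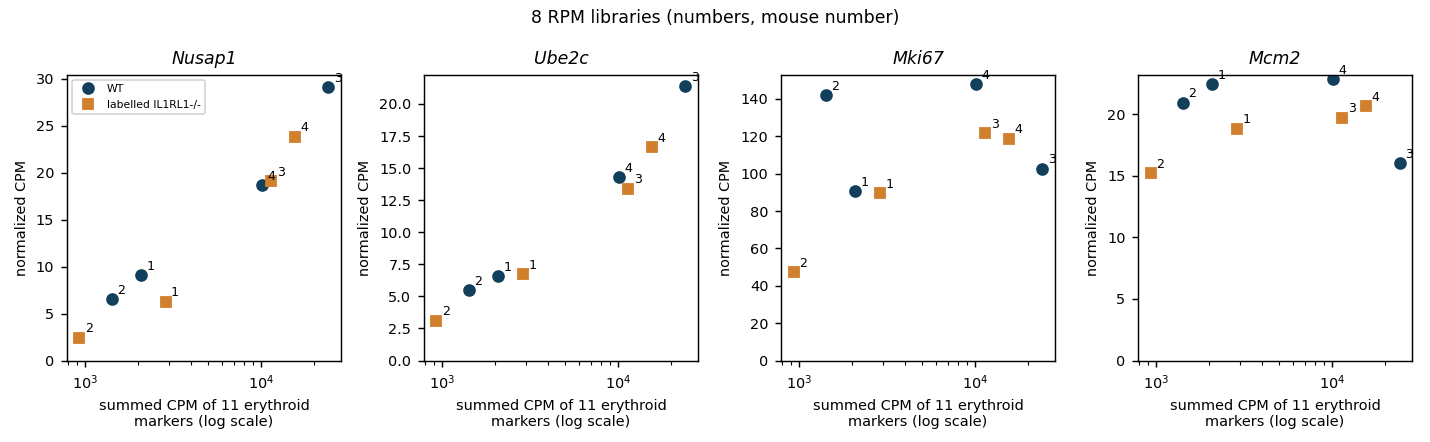
Normalized CPM of *Nusap1*, *Ube2c*, *Mki67*, and *Mcm2* (vertical axes, from 0) against the summed CPM of 11 erythroid markers (horizontal axes, log scale) in the 8 RPM libraries, numbered by mouse; circles are WT and squares are labelled IL1RL1-/-. *Nusap1* and *Ube2c* are higher in mice 3 and 4 of both genotypes, whereas *Mcm2* in WT is lowest in mouse 3 and *Mki67* in WT is highest in mice 2 and 4.

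The S phase members called at the same step were also all higher. In WT, 8 of 16 S phase members tested were higher in RPMs than in pre-RPMs and none were lower, and in libraries labelled IL1RL1-/- 7 of 16 were higher and none lower, against the same 14% and 14.5% of all genes. The median log2 fold change of those tested was 1.00 and 0.88, and the median difference over all 20 members was 1.02 and 1.09 on the log2 CPM scale. RPMs were above pre-RPMs without overlap for 14 of the 20 members in each genotype, where 25.7% of all genes tested in WT and 27% in libraries labelled IL1RL1-/- did so. Members called in both genotypes were the helicase subunits *Mcm2*, *Mcm3*, and *Mcm6*, the licensing factor *Cdc6*, the nucleotide synthesis enzymes *Rrm2* and *Tk1*, and *Uhrf1*, which maintains DNA methylation at replication. A further 4 members in WT (*Pcna*, *Mcm4*, *Mcm7*, and *Rrm1*) and 5 in libraries labelled IL1RL1-/- (the same with *Mcm5*) had an adjusted p under 0.01 with a log2 fold change under 1. The share of all genes with such values was not counted.

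*Mcm2* was at 12.2, 17.4, 13.5, and 11.2 CPM in WT monocytes, 6.51, 4.73, 7.36, and 7.38 in pre-RPMs, and 22.4, 20.96, 16.03, and 22.9 in RPMs. *Mcm2* in mice labelled IL1RL1-/- was at 15.5, 16.4, 12.3, and 11.7 CPM in monocytes, 4.49, 4.58, 5.66, and 5.22 in pre-RPMs, and 18.8, 15.2, 19.7, and 20.7 in RPMs. The RPM libraries were above all pre-RPM libraries in both genotypes, at a log2 fold change of 1.61 (SE 0.18, edgeR adjusted p = 3.77e-06) in WT and 1.84 (SE 0.17, edgeR adjusted p = 1.91e-07) in libraries labelled IL1RL1-/-. *Mcm5*, of the same helicase, was at 16.04, 17.2, 11.5, and 12.4 CPM in WT monocytes, 6.51, 7.35, 7.36, and 5.95 in pre-RPMs, and 15.4, 12.4, 16.03, and 15.5 in RPMs. *Mcm5* in mice labelled IL1RL1-/- was at 17.2, 13.03, 8.399, and 10.3 CPM in monocytes, 5.68, 7.97, 6.25, and 6.34 in pre-RPMs, and 10.98, 8.66, 15.3, and 13.8 in RPMs. Its log2 fold change was 1.08 (SE 0.17, edgeR adjusted p = 0.0001) in WT and 0.81 (SE 0.21, edgeR adjusted p = 0.0043) in libraries labelled IL1RL1-/-, on either side of the threshold of 1. *Pcna*, the DNA polymerase clamp, was at 18.5, 17.8, 14.7, and 14.8 CPM in WT monocytes, 11.6, 10.8, 13.97, and 8.57 in pre-RPMs, and 23.9, 20.1, 22.4, and 19.6 in RPMs. *Pcna* in mice labelled IL1RL1-/- was at 19.2, 18.5, 14.9, and 14.8 CPM in monocytes, 13.01, 13.9, 8.93, and 12.1 in pre-RPMs, and 21.3, 17.3, 21.1, and 23.4 in RPMs. The lowest RPM library was above the highest pre-RPM library in both genotypes, but the log2 fold change of *Pcna* was 0.89 and 0.71.

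*Rrm2*, the S phase subunit of ribonucleotide reductase, had the largest S phase rise in libraries labelled IL1RL1-/- and rose more than its constitutive partner *Rrm1*. *Rrm2* was at 4.74, 3.395, 3.67, and 4.49 CPM in WT monocytes, 2.56, 1.84, 2.94, and 2.14 in pre-RPMs, and 8.04, 13.8, 10.4, and 14.3 in RPMs. *Rrm2* in mice labelled IL1RL1-/- was at 3.44, 3.78, 4.74, and 4.53 CPM in monocytes, 1.42, 1.02, 2.08, and 1.68 in pre-RPMs, and 8.97, 7.03, 12.9, and 12.8 in RPMs. Its log2 fold change from pre-RPMs to RPMs was 2.24 (SE 0.27, edgeR adjusted p = 6.77e-06) in WT and 2.71 (SE 0.31, edgeR adjusted p = 2.08e-06) in libraries labelled IL1RL1-/-, and that of *Rrm1* was 0.63 and 0.61. *Uhrf1* was at 3.21, 3.79, 5.05, and 3.895 CPM in WT monocytes, 2.33, 1.05, 4.41, and 1.43 in pre-RPMs, and 6.35, 9.97, 11.5, and 12 in RPMs. *Uhrf1* in mice labelled IL1RL1-/- was at 4.43, 6.09, 5.17, and 4.73 CPM in monocytes, 1.66, 1.36, 3.27, and 0.746 in pre-RPMs, and 7.62, 4.25, 11.6, and 9.796 in RPMs, and its log2 fold change from pre-RPMs to RPMs was 2.04 and 2.27 (edgeR adjusted p = 0.00024 and 0.000213).

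The E-type cyclins, which drive entry into S phase with CDK2, had few counts. *Ccne1* was at 1.83, 1.198, 1.83, and 1.35 CPM in WT monocytes, 0.465, 0.263, 0.4903, and 0.714 in pre-RPMs, and 2.96, 2.65, 2.14, and 3.001 in RPMs. *Ccne1* in mice labelled IL1RL1-/- was at 1.48, 0.841, 0.646, and 0.823 CPM in monocytes, 0.473, 1.36, 0, and 0.373 in pre-RPMs, and 3.14, 0.981, 2.63, and 1.92 in RPMs. *Ccne2* was at 1.68, 1.398, 1.83, and 1.199 CPM in WT monocytes, 0.698, 0.788, 0.736, and 1.19 in pre-RPMs, and 2.75, 2.24, 1.87, and 2.08 in RPMs. *Ccne2* in mice labelled IL1RL1-/- was at 0.738, 0.841, 1.08, and 0.823 CPM in monocytes, 0.473, 0.678, 0.595, and 0.746 in pre-RPMs, and 2.69, 1.31, 2.63, and 3.19 in RPMs. Neither was in the main test from pre-RPMs to RPMs. In WT, every RPM library of both genes was above every pre-RPM library, whereas *Ccne1* overlapped between these groups in libraries labelled IL1RL1-/-.

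From monocytes to pre-RPMs, the members called were all lower. In WT, 1 of 12 mitotic and 3 of 14 S phase members tested were called, where 3.25% of all 11091 genes were called lower and 0.316% higher, and in libraries labelled IL1RL1-/- 3 of 11 mitotic and 5 of 14 S phase members were called, where 3.88% were called lower and 0.974% higher. The mitotic members were *Ccna2* in both genotypes (log2 fold change -1.86, SE 0.32, edgeR adjusted p = 0.00392 in WT and -1.43, SE 0.31, edgeR adjusted p = 0.00881 in libraries labelled IL1RL1-/-) and, in the latter, *Kif11*, a motor that separates the spindle poles (-1.90, SE 0.40, edgeR adjusted p = 0.00786), and *Mki67* (-1.27, SE 0.27, edgeR adjusted p = 0.00811, with overlap between the groups). The S phase members were *Mcm2* and *Mcm6* in both genotypes, *Mcm5* in WT, and *Mcm4*, *Rrm2*, and *Uhrf1* (log2 fold change -1.63, SE 0.35, edgeR adjusted p = 0.00915) in libraries labelled IL1RL1-/-. Of these, *Mcm6* changed most, from 18.9, 19.97, 9.64, and 15.1 CPM in WT monocytes to 3.95, 2.36, 3.92, and 3.57 in pre-RPMs and from 22.4, 15.1, 11.4, and 13.6 to 3.55, 3.05, 3.57, and 1.68 CPM in libraries labelled IL1RL1-/-, without overlap. Its log2 fold change was -2.20 (SE 0.27, edgeR adjusted p = 0.000563) in WT and -2.41 (SE 0.28, edgeR adjusted p = 0.000207) in libraries labelled IL1RL1-/-, and it rose again to 13.8, 16.3, 15.8, and 14.5 CPM in WT RPMs.

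The counts called at this first step moved with single libraries. The median log2 fold change of the members tested was -0.99 (mitotic) and -0.66 (S phase) in WT and -0.81 and -0.54 in libraries labelled IL1RL1-/-, against 0.007 and -0.002 over all genes. Between 8 and 9 members of each class did not overlap between monocytes and pre-RPMs in WT and in libraries labelled IL1RL1-/-, all with pre-RPMs lower, where 11.5% and 11.1% of all genes did so. The WT mitotic count fell to 0 without monocyte mouse 1 or 4 or pre-RPM mouse 1, 2, or 4, and rose to 2 without monocyte mouse 2 or 3. The WT S phase count fell to 1 without monocyte mouse 1 or 2 or any 1 pre-RPM library. In libraries labelled IL1RL1-/-, the mitotic count fell to 0 or 1 without monocyte mouse 1 or 2 or any 1 pre-RPM library, and the S phase count fell to 2 or 3 without monocyte mouse 2 or 4 or any 1 pre-RPM library. With the mouse as a block, which pairs cells labelled with the same mouse number, 2 mitotic members were called in WT (*Ccna2* and *Kif11*), and *Mcm2* in WT was no longer called.

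Markers of other cells fell at this step as well. All 6 NK cell markers fell in both genotypes, to 65.5 to 135 CPM in WT pre-RPMs, and from 479 to 1472 CPM to 13.2 to 50.5 CPM in libraries labelled IL1RL1-/-. Of the neutrophil precursor markers, 3 of 6 tested fell in WT, to 38.1 to 112 CPM, and 3 of 5 in libraries labelled IL1RL1-/-, from 544 to 1051 CPM to 57.2 to 209 CPM, where *Ctsg* was at 0 in every pre-RPM library. Of the plasma cell markers, 3 of 4 fell in WT, to 111 to 166 CPM, and 2 of 4 in libraries labelled IL1RL1-/-, from 334 to 1728 CPM to 42.3 to 342 CPM. The neutrophil precursor markers called were *Ltf*, *Camp*, and *Ngp* in both genotypes, with means of 261, 156, and 353 CPM in WT monocytes. *Mpo* and *Elane*, with means of 9.52 and 3.87 CPM there, were not called at this step. Precursor, NK, and plasma cell populations can include dividing cells, but these markers do not show whether the cells here were dividing. The part of their RNA in the higher member levels of monocytes was not tested.

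**Figure D4:**
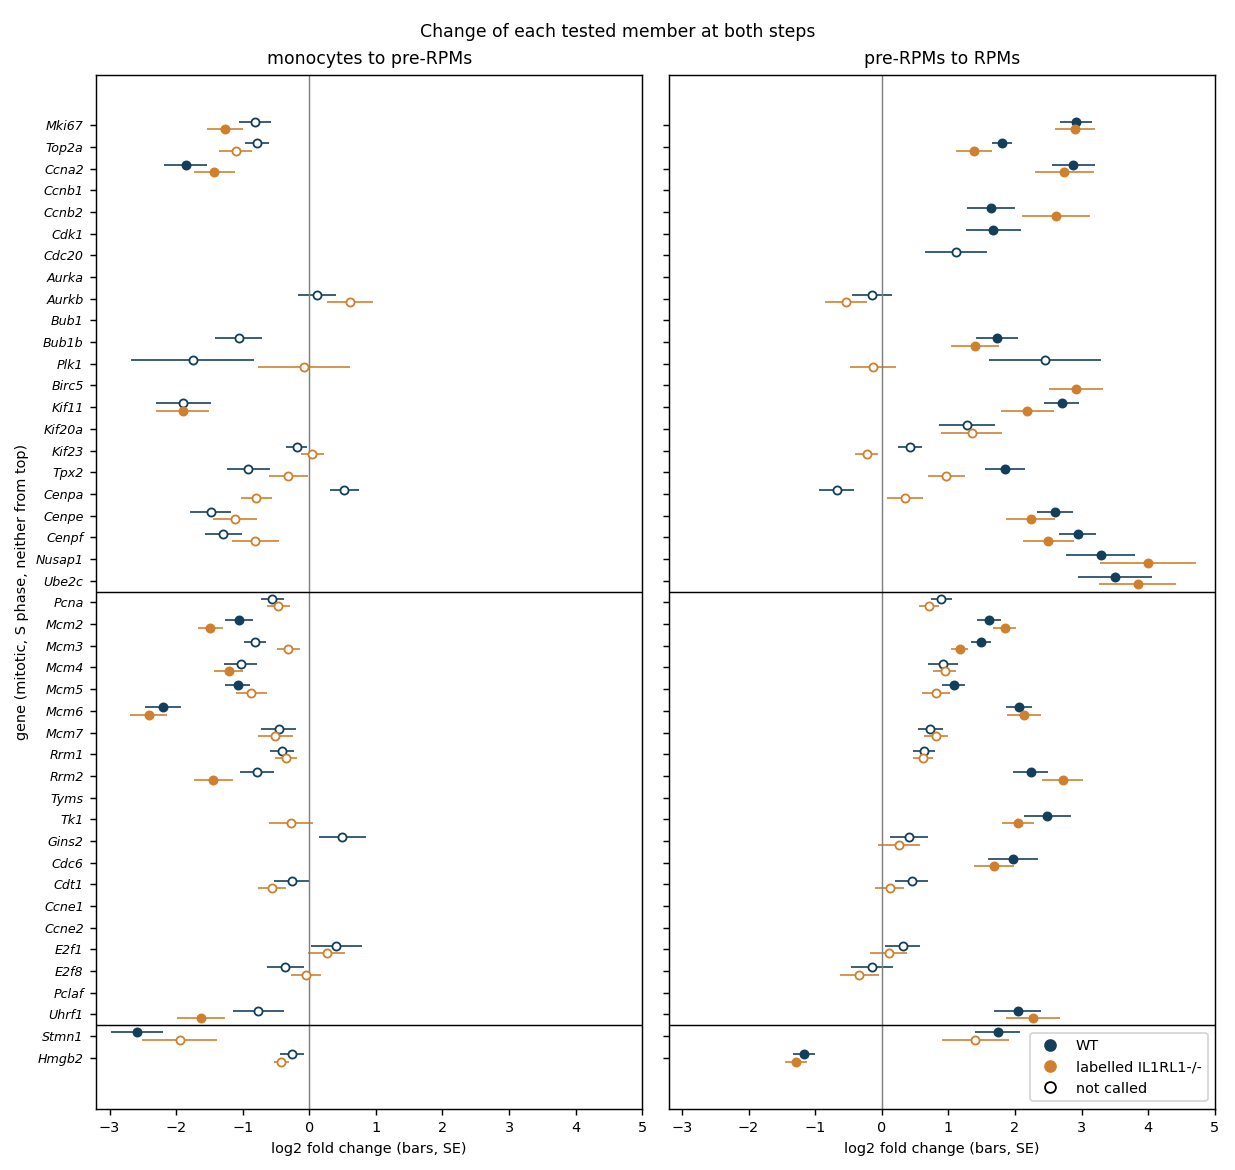
Log2 fold change of each member tested (points, with SE as bars) from monocytes to pre-RPMs (left) and from pre-RPMs to RPMs (right); blue is WT, orange is labelled IL1RL1-/-, filled points passed the thresholds, and members without a point were not tested. Called members lie below 0 on the left and above 0 on the right, except *Hmgb2*, which is below 0 on the right in both genotypes.

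Over the whole course, from monocytes to RPMs, more mitotic than S phase members were called higher. These comparisons share their groups with the steps above. In WT, 9 of 19 mitotic and 4 of 17 S phase members tested were higher in RPMs than in monocytes and none were lower, where 13.4% of all genes were called higher and 10.5% lower. The counts in libraries labelled IL1RL1-/- were 6 of 19 and 3 of 17, with none lower, where 14.3% of all genes were called higher and 11.6% lower. The S phase count there was close to the share of all genes. Members called in both genotypes were *Mki67*, *Birc5*, *Cenpe*, *Cenpf*, *Nusap1*, and *Ube2c*, and, of S phase, *Cdc6*, *Rrm2*, and *Tk1*. The 3 largest rises without overlap were those of *Ube2c*, *Nusap1*, and *Tk1* in WT (log2 fold change 3.31, 2.62, and 2.35, edgeR adjusted p = 0.000225, 0.00117, and 0.000211) and of *Ube2c*, *Tk1*, and *Cenpf* in libraries labelled IL1RL1-/- (2.77, 1.82, and 1.75, adjusted p = 0.000728, 3.26e-05, and 0.000798). The helicase genes *Mcm4*, *Mcm5*, and *Mcm6* differed little between the ends, with log2 fold changes from -0.10 to 0.03 in WT. With the RPM libraries of mice 1 and 2 only, 5 mitotic members were called in WT, and 2 mitotic and 1 S phase member in libraries labelled IL1RL1-/-, where 10.3% and 12% of all genes were called higher. Neither count in libraries labelled IL1RL1-/- then exceeded the share of all genes. *Nusap1* was then no longer called, at a log2 fold change of 1.64 in WT (edgeR adjusted p = 0.0113) and 1.09 in libraries labelled IL1RL1-/- (edgeR adjusted p = 0.143).

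The balance between the classes was compared through the summed CPM of each. Without *Plk1*, which varied between mice, the 21 other mitotic members summed to 102 ± 13.7 CPM in WT monocytes, 65.0 ± 13.2 in pre-RPMs, and 283 ± 44.8 in RPMs (mean ± SD, n = 4). The 20 S phase members summed to 169 ± 19.3, 103 ± 14.7, and 230 ± 15.7 CPM. The ratio of the mitotic to the S phase sum was therefore 0.614 ± 0.129 in the monocytes, 0.630 ± 0.071 in pre-RPMs, and 1.23 ± 0.113 in RPMs. For libraries labelled IL1RL1-/-, the mitotic sums were 107 ± 13.8, 58.9 ± 14.5, and 228 ± 78.8 CPM, the S phase sums 165 ± 28.8, 101 ± 4.61, and 213 ± 30.1 CPM, and the ratios 0.660 ± 0.116, 0.581 ± 0.126, and 1.04 ± 0.241 (mean ± SD, n = 4). The WT RPM ratios (1.09 to 1.36) were above all WT monocyte and pre-RPM ratios (at most 0.767). The RPM ratios labelled IL1RL1-/- (0.718 to 1.24) overlapped those of monocytes and pre-RPMs through mouse 2. *Mki67* made up 35.5% of the summed CPM of all 22 mitotic members, *Plk1* included, in WT RPMs. Without *Plk1* and *Mki67*, the mean ratio was 0.451, 0.482, and 0.706 in WT and 0.479, 0.457, and 0.611 in libraries labelled IL1RL1-/-. These sums weigh members by their counts and carry no test.

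**Figure D5:**
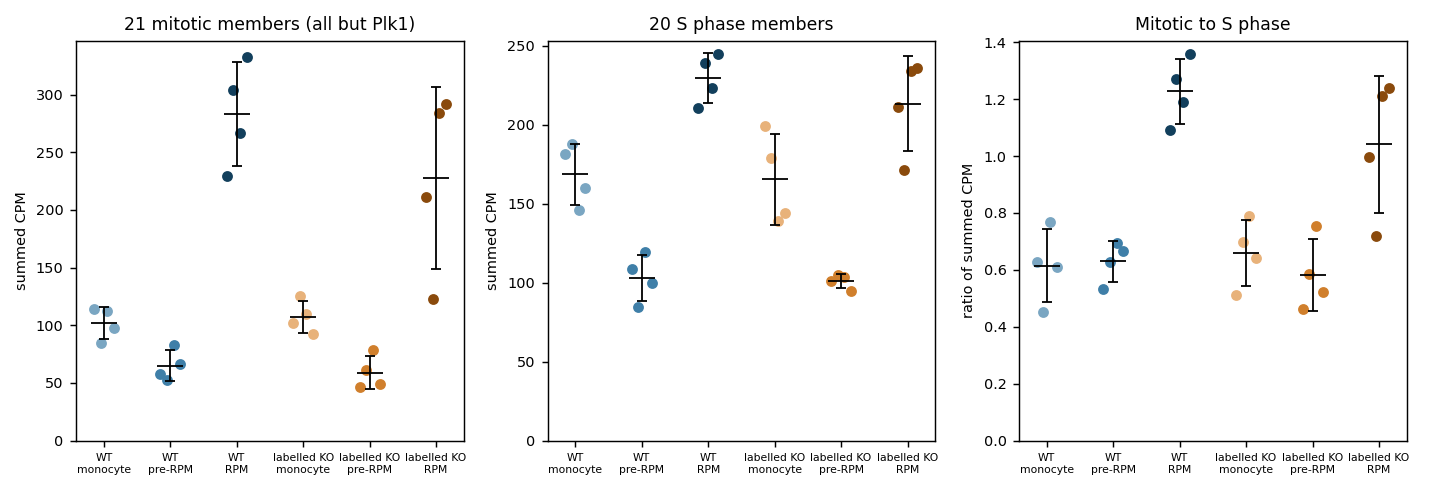
Summed normalized CPM of 21 mitotic members (all but *Plk1*, left), of 20 S phase members (middle), and the ratio of both (right) in each library (points), with the mean and SD of 4 mice per group and axes from 0. Both sums are lowest in pre-RPMs, and the ratio is at most 0.789 in monocytes and pre-RPMs against 0.718 to 1.36 in RPMs.

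Not all members followed the majority. *Aurkb*, the kinase of the chromosomal passenger complex, was at 2.14, 2.396, 3.67, and 3.15 CPM in WT monocytes, 2.33, 2.89, 3.92, and 3.095 in pre-RPMs, and 2.12, 2.24, 3.74, and 3.46 in RPMs. *Aurkb* in mice labelled IL1RL1-/- was at 3.44, 2.101, 3.66, and 1.44 CPM in monocytes, 4.49, 3.22, 5.95, and 2.98 in pre-RPMs, and 1.57, 3.105, 3.51, and 3.19 in RPMs. The groups overlapped throughout, in contrast to its partner *Birc5*, and its log2 fold change from pre-RPMs to RPMs was -0.14 in WT (edgeR adjusted p = 0.72). *E2f1*, the activator of S phase genes, was at 1.53, 2.396, 5.74, and 4.49 CPM in WT monocytes, 4.65, 3.15, 5.15, and 5.48 in pre-RPMs, and 4.45, 4.88, 7.48, and 7.16 in RPMs. *E2f1* in mice labelled IL1RL1-/- was at 3.94, 3.36, 5.17, and 4.12 CPM in monocytes, 6.15, 4.24, 6.85, and 3.17 in pre-RPMs, and 6.05, 3.76, 6.36, and 6.18 in RPMs, again with overlap. *E2f8*, a repressor of the E2F family, the cytokinesis kinesin *Kif23*, the centromeric histone *Cenpa*, the licensing factor *Cdt1*, and the helicase cofactor *Gins2* were not called in any comparison of cell types either, with log2 fold changes from pre-RPMs to RPMs between -0.68 and 0.45 in WT.

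*Hmgb2*, a chromatin protein that is abundant in dividing cells, went the other way. It was at 79.3, 50.9, 82.8, and 57.98 CPM in WT monocytes, 57.7, 63.5, 63.5, and 42.1 in pre-RPMs, and 23.1, 30.1, 19.2, and 30.7 in RPMs. *Hmgb2* in mice labelled IL1RL1-/- was at 58.3, 67.7, 58.4, and 72.6 CPM in monocytes, 49.7, 49.7, 50.6, and 41.95 in pre-RPMs, and 22.6, 12.9, 26.5, and 20.2 in RPMs. Every RPM library was below every other, with a log2 fold change from pre-RPMs of -1.18 (SE 0.17, edgeR adjusted p = 3.81e-05) in WT and -1.29 (SE 0.17, edgeR adjusted p = 7.71e-06) in libraries labelled IL1RL1-/-, the only member called lower at this step. From monocytes, the log2 fold change of *Hmgb2* to RPMs was -1.41 (SE 0.20, edgeR adjusted p = 0.000167) and -1.65 (SE 0.19, edgeR adjusted p = 1.37e-05). *Stmn1*, which encodes the microtubule destabilizer stathmin, had the largest fall from monocytes to pre-RPMs in WT. It was at 11.9, 14.8, 6.88, and 6.29 CPM in WT monocytes, 1.396, 0.788, 2.45, and 1.91 in pre-RPMs, and 4.23, 7.94, 5.34, and 5.31 in RPMs. *Stmn1* in mice labelled IL1RL1-/- was at 8.86, 6.51, 3.02, and 4.53 CPM in monocytes, 1.18, 3.39, 0.595, and 0.186 in pre-RPMs, and 3.14, 3.76, 3.51, and 5.75 in RPMs. The log2 fold change in WT was -2.58 (SE 0.39, edgeR adjusted p = 0.00175) at the first step and 1.74 (SE 0.34, edgeR adjusted p = 0.000621) at the second. *Ccnb1*, *Bub1*, and *Pclaf* had too few counts for any of the main tests, and *Aurka*, *Tyms*, *Ccne1*, and *Ccne2* for most of those between cell types.

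*Plk1*, the polo-like kinase of mitotic entry, varied most between mice. Its counts in WT mice 1 to 4 were 608, 68, 37, and 129 in the monocytes, 5, 3, 25, and 135 in pre-RPMs, and 672, 259, 33, and 101 in RPMs. In mice labelled IL1RL1-/-, they were 113, 38, 10, and 8 in the monocytes, 60, 46, 12, and 55 in pre-RPMs, and 21, 51, 33, and 66 in RPMs. WT mouse 1 was thus the highest monocyte and RPM library but not the highest pre-RPM library, and no step of *Plk1* was called with all libraries.

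Other cell cycle genes were taken from lists chosen by role. From monocytes to pre-RPMs, 1 of 16 replication and 1 of 15 mitosis genes tested fell in WT, and 1 of 14 and 1 of 16 in libraries labelled IL1RL1-/-, where 3.25% and 3.88% of all genes were called lower. None rose, and those that fell were *Pold1* and *Smc2* in WT (log2 fold change -1.16 and -1.12) and *Pole* and *Nuf2* in libraries labelled IL1RL1-/- (-1.76 and -2.07). Of 24 further replication genes, 16 were tested from pre-RPMs to RPMs in each genotype, and 7 rose and none fell in both, where 14% of all genes were called higher in WT and 14.5% in libraries labelled IL1RL1-/-. The largest rises were those of the DNA ligase *Lig1* (log2 fold change 2.11) and the polymerase subunit *Pola1* (1.89) in WT, and of the polymerase subunit *Pole* (2.24) and *Lig1* (1.94) in libraries labelled IL1RL1-/-. Of 35 further mitosis genes, 13 of 26 tested rose and 1 fell in WT, and 8 of 20 rose and 1 fell in libraries labelled IL1RL1-/-. At this step, 10.7% and 11.5% of all genes were called lower. The kinetochore gene *Kntc1* (2.83 in WT and 3.21 in libraries labelled IL1RL1-/-) and the condensin subunit *Ncapg2* (2.42 and 2.34) rose, whereas *Racgap1*, needed for cytokinesis, fell (log2 fold change -1.47 and -2.37). Median log2 fold changes were 1.05 and 1.42 for both lists in WT and 0.60 and 1.14 in libraries labelled IL1RL1-/-.

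The D-type cyclins changed in opposite directions. Of 8 genes of G1 cyclins and kinases, 3 rose from pre-RPMs to RPMs and 1 fell in WT, and 2 rose and 1 fell in libraries labelled IL1RL1-/-. Of all genes tested, 14% were called higher and 10.7% lower in WT, and 14.5% and 11.5% in libraries labelled IL1RL1-/-. *Ccnd1* rose from 1.31 to 16.9 CPM in WT (log2 fold change 3.64) and from 2.77 to 16.4 CPM in libraries labelled IL1RL1-/- (2.44), whereas *Ccnd3* fell from 96.01 to 27.97 CPM (log2 fold change -1.82) and from 95.6 to 24.8 CPM (-2.003). *Ccnd2* fell from monocytes to pre-RPMs (-1.38 and -1.77) and rose from pre-RPMs to RPMs, from 53.8 to 163 CPM in WT (log2 fold change 1.55) and from 39.9 to 151 CPM in libraries labelled IL1RL1-/- (1.87). Of 12 inhibitors and pocket proteins, 8 were tested, none rose, and 2 fell from pre-RPMs to RPMs in each genotype. The counts of both lists, out of 8 genes each, were not tested against the shares of all genes. The 2 that fell are given next. These were *Cdkn1a*, which encodes p21, from 5.37 to 0.537 CPM in WT (log2 fold change -3.24) and from 5.77 to 0.216 CPM in libraries labelled IL1RL1-/- (-4.70), and *Cdkn2d* (-1.35 and -1.16).

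Between genotypes, no member was called in any cell type by edgeR at an adjusted p under 0.05, nor by DESeq2. In monocytes, 31 members were tested, 1 (*Stmn1*) had an unadjusted p under 0.05, and the median log2 fold change in libraries labelled IL1RL1-/- was -0.015, where 0.0614% of all genes were called and 3.59% had an unadjusted p under 0.05. In pre-RPMs, 20 were tested, 2 (*Cenpa* and *Mcm3*) had an unadjusted p under 0.05, and the median was -0.052, where 0.552% of all genes were called and 8.8% had an unadjusted p under 0.05. In RPMs, 41 were tested and 3 (*Top2a*, *Bub1b*, and *Plk1*) had an unadjusted p under 0.05, where 0.233% of all genes were called and 7.27% had an unadjusted p under 0.05. There, 37 of 41 log2 fold changes were negative, with a median of -0.24 against -0.001 over all genes, and the lowest RPM library for most members was mouse 2 labelled IL1RL1-/-. A p that misses the threshold does not show that the genotypes were alike.

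The smallest adjusted p of a member in pre-RPMs was that of *Cenpa*, at 6.05, 8.14, 8.58, and 7.86 CPM in WT and 2.84, 4.07, 4.46, and 3.17 CPM in libraries labelled IL1RL1-/-, without overlap (log2 fold change -1.08, SE 0.24, edgeR adjusted p = 0.0563). It was called when every gene of at least 1 count was tested (edgeR adjusted p = 0.0143) and when at least 10 counts in every library were asked for (edgeR adjusted p = 0.0398). In RPMs it was that of *Plk1* (log2 fold change -2.74, SE 0.66, edgeR adjusted p = 0.194). With the mouse number as a block, *Plk1* was called lower in monocytes labelled IL1RL1-/- (log2 fold change -1.82, edgeR adjusted p = 0.046) and in RPMs (log2 fold change -2.35, edgeR adjusted p = 0.0127). Same-numbered mice of different genotype are different animals. Without WT RPM mouse 3, *Plk1* was also called in RPMs (log2 fold change -3.09, edgeR adjusted p = 0.0213). The differences between genotypes in the change at each step were tested as interactions over all 24 libraries. No member passed for the step from monocytes to pre-RPMs or for the step from pre-RPMs to RPMs, in edgeR or in DESeq2, where 0% and 0.0234% of all genes did, and 3 of 41 members had an unadjusted p under 0.05 for each, where 4.18% and 5.9% of all genes did. The members called at a step in 1 genotype alone were therefore not shown to differ between genotypes.

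Among the further mitosis genes, *Hjurp*, which deposits the centromeric histone CENP-A, was lower in libraries labelled IL1RL1-/- in all 3 cell types. Its mean CPM was 58.2 in WT and 23.2 in libraries labelled IL1RL1-/- in the monocytes, 65.7 and 18.3 in pre-RPMs, and 86.9 and 23.6 in RPMs, without overlap. The log2 fold change of *Hjurp* was -1.34 (SE 0.14, edgeR adjusted p = 0.00882), -1.84 (SE 0.11, edgeR adjusted p = 1e-07), and -1.89 (SE 0.16, edgeR adjusted p = 0.000114). No other gene of the 4 lists of further cell cycle genes was called between genotypes, and no member was called with it. The difference in *Hjurp* was present both in pre-RPMs, where most members were lowest, and in RPMs, where most were highest. Its own mean was lowest in monocytes in WT and in pre-RPMs in libraries labelled IL1RL1-/-. The cause of this difference, and whether it relates to cell division, was not tested.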

How the data were processed

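RNA was prepared from sorted splenic cells with a strand-specific, ribosomal-RNA-depleted total RNA kit. After adapter trimming with cutadapt, the authors aligned reads with STAR 2.5.1 (GRCm38) and counted them per gene with featureCounts 1.6.2, by strand, over the exons of Ensembl release 95. The deposited values are raw counts per gene for each of 24 libraries (4 mice in each of 6 groups), with totals of 3562367 to 6559454, which limit the precision for members of few counts.

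Counts were tested with edgeR 4.0.16 (R 4.3.3, quasi-likelihood test, filterByExpr, TMM factors of 0.797 to 1.38) between the libraries of 2 groups, and interactions over 12842 genes in all 24 libraries. P-values were adjusted by Benjamini-Hochberg over all genes tested, and all tests were two-sided. Calls between cell types needed an adjusted p below 0.01 together with a log2 fold change beyond 1 in either direction, and calls between genotypes or in interactions an adjusted p below 0.05. These thresholds follow the study, which used DESeq2, run here as an alternative (version 1.42.0). CPM was scaled by TMM factors. The tests were tried on simulated data first.

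By the labels, mouse numbers were taken to mark the same animal across cell types within a genotype. Correlations of deviations from group means for the same number were -0.039 to 0.306, and what they reflect was not tested. Between genotypes, the correlations for the same number were 0.118 to 0.452 in monocytes, 0.045 to 0.155 in pre-RPMs, and 0.149 to 0.182 in RPMs. Those for different numbers averaged -0.086, -0.031, and -0.054. What these reflect was not tested either. Values with the mouse as a block are given where they changed a call. No 2 libraries of a group agreed within sampling noise (chi-square per degree of freedom of 4.26 to 28.5).

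The members, the further gene lists, and the markers were chosen with earlier results of these data known. Genes named with values were a fixed set of 17 members, the 3 largest changes without overlap among members called in each comparison, and the 2 largest called changes of each further list. Other members given with values (such as *Plk1*, *Cenpa*, *Rrm1*, and the *Mcm* genes outside this set) were chosen after their values were seen, as were the alternatives without *Plk1* and with the RPM libraries of mice 1 and 2 only. Promoters were taken from RefSeq (GRCm38.p6). Accessibility data were not used here.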

Additional observations from a re-analysis of the deposited data

Results flagged for a closer look

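In 150 groups of 4 libraries, formed by members and by summed lists, the gap between the most distant library and its nearest neighbour was compared with the range of the group. It exceeded Dixon's limit in 9 of the 150 groups, a share close to the 1 in 20 that chance gives. *Plk1* was far higher in mouse 1 of WT monocytes (92.9 CPM, gap of 0.872 of the range) and in mouse 4 of WT pre-RPMs (32.1 CPM, 0.83). *Birc5* was higher in mouse 3 of WT pre-RPMs (1.47 CPM, 0.884), at 6 counts against 3 in each other mouse. The summed erythroid markers also stood apart in that library (643 CPM, 0.864). *Mcm5* was lower in mouse 2 of WT RPMs (12.4 CPM, 0.839), and *E2f1* was lower in mouse 2 of RPMs labelled IL1RL1-/- (3.76 CPM, 0.882). *Hmgb2* was lower in mouse 4 of pre-RPMs labelled IL1RL1-/- (42.0 CPM, 0.891). The summed level of all 22 mitotic members was lower in mouse 3 of WT RPMs (275 CPM, 0.833), where *Plk1* was at its lowest in that group. The summed neutrophil precursor markers were higher in mouse 1 of RPMs labelled IL1RL1-/- (3.81 CPM, 0.909), at a level far below that of monocytes.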

How the results depend on the processing

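No change called in a comparison reversed its direction under an alternative run on it, whereas small differences that were not called could change sign, such as that of *Plk1* between genotypes in pre-RPMs (log2 fold change -0.16, but 0.06 with total counts as the only scaling) and that of *E2f1* from pre-RPMs to RPMs in WT (0.31, but -0.03 with the RPM libraries of mice 1 and 2 only). Counts of members called are given as mitotic and then S phase, and the cause of each change was not tested unless the alternative itself changes the genes tested or the threshold. From monocytes to pre-RPMs in WT (1 and 3 called), the mitotic count was 6 without a fold threshold (adjusted p under 0.05), 6 with total counts as the only scaling, 5 with every gene of at least 1 count, 0 with at least 10 counts in every library, 3 in 1 fit of all 24 libraries, 3 with DESeq2, and 0 with glmTreat, which tests against a log2 fold change of 1. The S phase count was 5 without a fold threshold, 5 with total counts, and 1 with glmTreat. In libraries labelled IL1RL1-/- (3 and 5 called), the mitotic count was 6 without a fold threshold and 0 with glmTreat, and the S phase count was 2 with at least 10 counts and 1 with glmTreat. From pre-RPMs to RPMs, at least 10 counts in every library left 2 mitotic and 3 S phase members called in WT (12 and 8 called) and 2 and 2 in libraries labelled IL1RL1-/- (11 and 7 called), where the S phase count was 12 without a fold threshold and 11 in 1 fit of all 24 libraries. From monocytes to RPMs in WT (9 and 4 called), the mitotic count was 5 with total counts, 5 with at least 10 counts, 4 with glmTreat, and 5 with the RPM libraries of mice 1 and 2 only, and the S phase count was 9 without a fold threshold, 2 with at least 10 counts, and 1 with glmTreat. In libraries labelled IL1RL1-/- (6 and 3 called), the mitotic count was 3 with at least 10 counts, 1 with glmTreat, and 2 with the RPM libraries of mice 1 and 2 only, and the S phase count was 5 without a fold threshold and 1 under each of the other 3. Between genotypes, where no member was called, 1 member was called with every gene of at least 1 count in each of the 3 cell types and in both interactions, and 1 in pre-RPMs with at least 10 counts. Scaling by total counts moved the median log2 fold change of all genes in WT to -0.36 from monocytes to pre-RPMs, 0.22 from pre-RPMs to RPMs, and -0.18 from monocytes to RPMs.

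Leaving out each library in turn gave 0 to 2 mitotic and 1 to 4 S phase members called from monocytes to pre-RPMs in WT, and 0 to 3 and 2 to 4 in libraries labelled IL1RL1-/-. From pre-RPMs to RPMs, it gave 11 to 16 and 8 to 10 in WT, and 10 to 14 and 7 to 9 in libraries labelled IL1RL1-/-. From monocytes to RPMs, it gave 7 to 11 and 4 to 4 in WT, and 4 to 7 and 3 to 4 in libraries labelled IL1RL1-/-. Between genotypes, it gave 0 to 0 in monocytes and pre-RPMs, 0 to 1 in RPMs (*Plk1*, without WT RPM mouse 3), and 0 to 0 in both interactions.

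Under a replicate block for the mouse, the mitotic count from monocytes to pre-RPMs in WT was 2. Between genotypes, where same-numbered mice are different animals, 1 member was called in monocytes and 1 in RPMs (*Plk1* in both). In pre-RPMs, 1 was called (*Cenpa*, log2 fold change -1.08, edgeR adjusted p = 0.033). The block moved no other count of members called by over 1.5 times. Depth limits the result for members of few counts. From pre-RPMs to RPMs, the main tests left out 8 members in WT and 9 in libraries labelled IL1RL1-/-. Between genotypes in pre-RPMs, they left out 24.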
